A study of Mus musculus with 9 samples.

Results

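The interleukin-6 cytokine family was examined in 9 libraries from mouse hearts: the ligands Il6, Il11, Lif, Osm and Clcf1, the receptor chains Il6ra, Il6st and Osmr, the transcription factor Stat3 and its feedback inhibitor Socs3. These 10 genes were taken by symbol from the 53465 gene IDs counted in each library, and all 10 were found. After a filter on low counts 8 of the 10 were among the 13825 genes tested; Il11 and Osm were too low for the test. Every mouse was of the immunodeficient strain NOD-SCID, and the labels place the sample in the border zone of the infarct in each group, although sham hearts have no infarct. Of the 3 groups of 3 libraries, the sham group had sham surgery, the ligation group had a coronary artery tied off, and the cell group had the ligation followed by implantation of FOXO3-GE-MPCs. The titles and the treatment field give FOXO3 for all cell libraries, whereas the source names FOXO4 for cell replicate 2 and FOXO5 for replicate 3; the titles were followed. Age, sex and the time after surgery are not given in the sources used here, nor is what vehicle the ligation group received. Nothing in the labels says that the libraries of a group came from separate animals, so p-values measure the spread between these libraries, which may be technical.

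All members but Stat3 and Socs3 encode secreted cytokines or membrane receptors of 1 signalling system. A ligand first binds its own receptor (Il6ra for interleukin-6; Osmr or the LIF receptor for others), and the complex then recruits gp130, the product of Il6st, which nearly all family ligands share. Gp130 carries Janus kinases that phosphorylate STAT3; STAT3 moves to the nucleus and, among other genes, switches on Socs3, whose product blocks the receptor. In the heart the pathway is known for protecting muscle cells after injury, for the acute-phase response and, through interleukin-11, for fibroblast activation.

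Gene counts per library ran from 4549268 (ligation replicate 1) to 7515052 (ligation replicate 3), so 3 counts were worth 0.375 to 0.639 counts per 1000000 (CPM), the lowest level taken as detectable. CPM here are scaled with TMM factors, which hold the bulk of genes level between libraries. Scaling by library totals alone shifted the median gene by 0.19 (log2) in ligation against sham and by 0.16 in cells against sham, and moved the share of called genes that were higher from 52.7% to 78.7% and from 51.2% to 73.1%. In cells against ligation that share went from 42.4% to 32.0%. Heart muscle markers (6 genes) summed to 29942 to 38521 CPM, with none at 0 in any group. Mitochondrially encoded genes took 19.1% to 19.9% of gene counts in sham, 12.5% to 13.9% after ligation and 14.3% with cells; with those genes removed 5, 1 and 4 members were called in the 3 comparisons given next. Lymphocyte markers (7 genes) summed to 0.567 to 3.20 CPM, with Ms4a1 at 0 counts in all 9. The file headers of sham replicates 1 and 2 share a name stem, as do those of ligation replicates 2 and 3; summing each such pair left 5, 1 and 4 members called in the 3 comparisons given next.

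After ligation 5 members rose: Il6, Il6ra, Il6st, Stat3 and Socs3, that is a ligand, its own receptor, the shared receptor, the transcription factor and its feedback inhibitor. A call means an adjusted p under 0.05 (edgeR quasi-likelihood test over all genes, Benjamini-Hochberg), and 38.2% of all tested genes were called in this comparison, 20.1% as higher. In ligated hearts with cells Il6ra was lower than in ligation alone, in a comparison where 9.87% of tested genes were called, 5.69% as lower and 4.19% as higher. Against sham the cell group had 5 members called higher, Il6, Lif, Clcf1, Il6st and Stat3, where 40.9% of all tested genes were called and 21.0% were higher. Of the 8 tested members, 6 had CPM ranges that did not overlap between ligation and sham (47.6% of all tested genes), 3 between cells and ligation (27.2%) and 5 between cells and sham (49.8%). The count called in cells against sham was 3 without sham replicate 1, without sham replicate 3 or without cell replicate 3, and 3 with DESeq2. Of the 8 tested members, Il6 met the count filter in the ligation group alone and Lif in the cell group with 2 ligation libraries, so their passing the filter already favoured a difference. Each group stands in 2 of the 3 comparisons, which therefore share libraries.

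**Figure D1:**
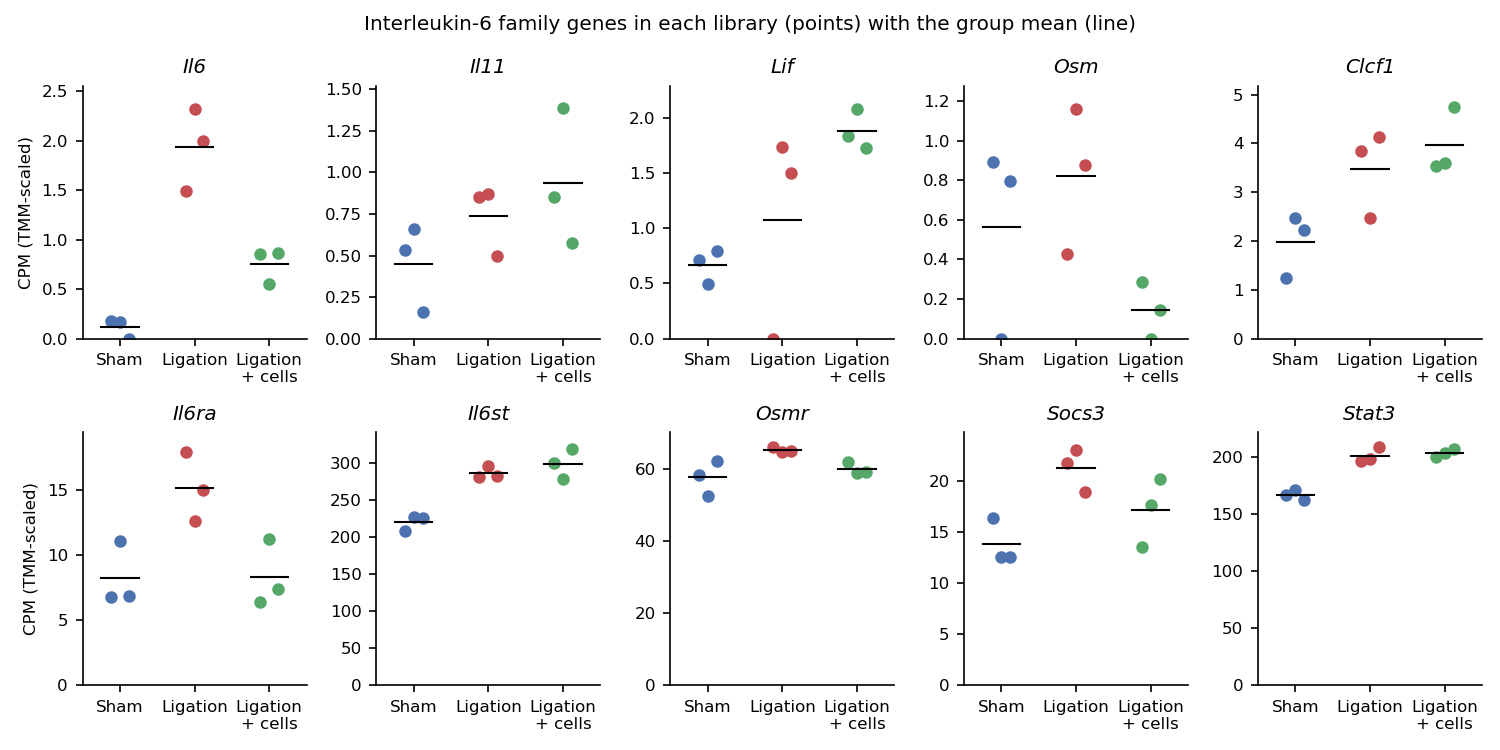
Level of each of the 10 members in CPM (vertical axes, each from 0) in the sham, ligation and cell groups; points are single libraries and lines are means of 3. Il6, Il6ra, Il6st, Osmr, Socs3 and Stat3 had ligation libraries that all lay above the sham libraries. Il6ra ran from 6.38 to 11.2 in the cell group, beside 6.76 to 11.0 in sham.

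Il6 encodes interleukin-6, a cytokine of injury and inflammation (ENSMUSG00000025746, chr5:30013114-30019981 in GRCm38, plus strand). Its counts were 1, 1 and 0 in sham, 7, 16 and 16 in ligation, and 6, 4 and 6 with cells. Each ligation library was thus above every cell library, and each cell library above every sham library, although sham was below the detectable level. In CPM the means were 0.114 ± 0.0992 (SD, n = 3), 1.94 ± 0.416 and 0.757 ± 0.175. Pooled over libraries and corrected for depth, ligation held 17.9 times the sham level, with an exact 95% interval of 4.63 to 153 that covers counting error only. The cell group held 6.79 times the sham level (1.60 to 60.9) and 0.379 times the ligation level (0.198 to 0.695). The increase after ligation had an edgeR adjusted p of 0.000105 and the excess of the cell group over sham one of 0.0154, while cells against ligation missed the threshold at 0.0625. No alternative brought the last value under 0.05; it ran from 0.0544 to 0.255. The cell group's difference from sham was not called without sham replicate 3 (adjusted p 0.0714) or by DESeq2 (0.0588), within a range of 0.00949 to 0.0714 over the alternatives that tested it. With the sham and cell libraries alone Il6 did not enter the test, since it met the count filter through the ligation libraries, so this call depends on their presence in the fit.

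The region before the Il6 start is shown because Il6 had the largest relative change of the members. Capitals mark short motifs known to bind factors of the inflammatory response, searched on both strands in the 250 bases before the start (RefSeq, GRCm38.p6, chr5:30012864-30013113, plus strand).

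Il6 promoter: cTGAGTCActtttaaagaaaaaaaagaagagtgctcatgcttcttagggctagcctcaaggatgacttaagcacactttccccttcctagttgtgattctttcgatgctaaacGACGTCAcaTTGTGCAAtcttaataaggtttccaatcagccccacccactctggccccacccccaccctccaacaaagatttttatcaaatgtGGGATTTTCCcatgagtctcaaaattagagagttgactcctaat

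The capitals mark, in order, an AP-1 motif, a cyclic AMP response element, a C/EBP motif and an NF-kappaB motif, and none overlaps another. AP-1 was searched as TGANTCA. The response element was searched as GACGTCA. C/EBP was searched as TTGNNCAA. NF-kappaB was searched by its usual core of 10 bases. The matches begin 249, 137, 128 and 44 bases before the start. Among 32851 such windows of all genes, the AP-1 letters occurred in 6.75%, the response element in 2.78%, the C/EBP letters in 5.65% and the NF-kappaB letters in 0.356%. The motif letters were chosen with this sequence in view, and a match describes letters, not binding. RefSeq windows were matched for 8 of the 10 members.

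Lif encodes leukaemia inhibitory factor, which acts on heart muscle through the LIF receptor and gp130 (ENSMUSG00000034394, chr11:4257557-4272514, plus strand). It had 4, 3 and 5 counts in sham, 0, 12 and 12 in ligation, and 13, 15 and 12 with cells. Ligation was split, with replicate 1 at 0 and the others at 1.74 and 1.50 CPM, whereas the cell libraries lay together at 1.84, 2.08 and 1.73 CPM, above every sham library (0.494 to 0.794 CPM). Cells differed from sham by 1.47 on the log2 scale (SE 0.582, edgeR adjusted p 0.0491), the highest adjusted p among the member calls. It passed in 1 of 9 fits that each left out a library, the one without ligation replicate 1, and its adjusted p over all alternatives ran from 0.0136 to 0.147. Neither ligation against sham (0.82, SE 0.635, edgeR adjusted p 0.334) nor cells against ligation (0.65, SE 0.509, edgeR adjusted p 0.497) passed. The region before the start is shown for its single motif, an AP-1 match in capitals (RefSeq, GRCm38.p6, chr11:4257318-4257567, plus strand), which begins 228 bases before the start.

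Lif promoter: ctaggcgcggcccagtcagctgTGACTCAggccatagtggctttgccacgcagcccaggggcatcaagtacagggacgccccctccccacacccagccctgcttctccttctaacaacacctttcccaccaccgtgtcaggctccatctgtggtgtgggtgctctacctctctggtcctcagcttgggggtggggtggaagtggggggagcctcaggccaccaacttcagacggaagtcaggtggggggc

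Clcf1 encodes cardiotrophin-like cytokine factor 1, which acts through the CNTF receptor (ENSMUSG00000040663, chr19:4214238-4223490, plus strand). It was at 1.25, 2.47 and 2.22 CPM in sham, 3.84, 2.46 and 4.13 in ligation, and 3.55, 3.61 and 4.75 with cells. Every cell library was above every sham library, and ligation replicate 2 lay inside the sham range. Only the cell group differed from sham past the threshold (log2 difference 0.98, SE 0.335, edgeR adjusted p 0.0234), against 0.79 for ligation (SE 0.345, edgeR adjusted p 0.0783); the difference between these was 0.19 (SE 0.302, edgeR adjusted p 0.764). The call was lost without sham replicate 1 (adjusted p 0.110) or cell replicate 3 (0.0991), in a range of 0.00844 to 0.110. Ligation against sham passed without ligation replicate 2 (adjusted p 0.0453). Clcf1 shares 311 exon bases with AC109138.7, a gene on its own strand that was not analysed here.

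Ctf1, which encodes cardiotrophin-1, another family ligand that acts on heart muscle, was at 2.88 ± 0.674 CPM (SD, n = 3) in sham and 4.10 ± 1.33 after ligation, a difference of 0.54 on the log2 scale that did not pass (SE 0.326, edgeR adjusted p 0.208). The ligand genes Il27, Ebi3, Il31, Cntf and Ctf2 were too low for the test.

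Il11 and Osm stayed near the detectable level. Il11 encodes interleukin-11, a fibroblast-acting cytokine (ENSMUSG00000004371, chr7:4772373-4782859, minus strand), and had 3, 4 and 1 counts in sham, 4, 6 and 4 in ligation and 6, 10 and 4 with cells. Its groups overlapped in every comparison, with exact two-sided permutation p-values of 0.2 to 0.6 for 3 against 3 libraries, where 0.1 is the smallest possible. Pooled counts gave 2.12 times the sham level with cells, with an exact 95% interval of 0.895 to 5.57 for counting error, so a difference was not detectable at this depth. Osm encodes oncostatin M, made mainly by myeloid cells (ENSMUSG00000058755, chr11:4236420-4241026, plus strand, next to Lif). It had 5, 0 and 5 counts in sham, 2, 8 and 7 in ligation and 2, 0 and 1 with cells. All cell libraries (0 to 0.284 CPM) lay below all ligation libraries (0.426 to 1.16 CPM), which gave an exact permutation p of 0.1, and the pooled ratio of cells to ligation was 0.163 (0.0306 to 0.564). Ligation replicate 1 and cell replicate 1 each held 2 counts, so the gap between these libraries came from scaling for depth alone. Both, like the other cell libraries, were below the detectable level of 3 counts. In this comparison 27.2% of all tested genes had CPM ranges that did not overlap.

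Il6ra encodes the interleukin-6 receptor, which makes a cell responsive to interleukin-6 and is found chiefly on myeloid cells and hepatocytes (ENSMUSG00000027947, chr3:89864059-89913196, minus strand). Its level was 6.76, 11.0 and 6.83 CPM in sham, 17.9, 12.6 and 15.0 in ligation, and 6.38, 11.2 and 7.35 with cells. Every ligation library was above every library of both other groups, and the cell group covered nearly the same range as sham. Ligation raised it by 0.86 on the log2 scale (SE 0.219, edgeR adjusted p 0.00362), or 1.82-fold. With cells it fell by 0.84 on the log2 scale relative to ligation (SE 0.213, edgeR adjusted p 0.0132). Against sham the difference of the cell group was 0.02, with a 95% interval of -0.55 to 0.59, which leaves room for a difference of either sign. Leaving out ligation replicate 1 (adjusted p 0.0536), cell replicate 1 (0.0746) or cell replicate 3 (0.0582) ended the call in cells against ligation; the values ran from 8.76e-05 to 0.0746. The increase after ligation was called under every alternative, with adjusted p-values of 1.89e-05 to 0.0256.

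Most macrophage markers rose after ligation and fell with cells, as Il6ra did. Mertk alone had a lower mean after ligation, at 16.3 CPM against 21.8 in sham (edgeR adjusted p 0.0546, not called). Of the 8 markers (Adgre1, Cd68, Csf1r, Lyz2, Mrc1, C1qa, C1qb and Mertk), all of which were tested, 6 rose after ligation and 8 fell with cells by the edgeR call. Their summed level was 670 to 719 CPM in sham, 1180 to 1211 in ligation and 485 to 501 with cells, and none was at 0 in any group. The cell libraries were thus below sham for the macrophage sum, but not for Il6ra. The part of these cells in the Il6ra result was not tested; in RNA from whole tissue, fewer cells of a type and less RNA per cell cannot be told apart. Neutrophil markers (7 genes) summed to 39.2 to 45.9 CPM in sham, 15.1 to 21.4 in ligation and 5.76 to 6.80 with cells, with Ly6g at 0 in sham and with cells. Of the 4 that were tested, 2 were called lower after ligation and 3 with cells, and Csf3r had its highest mean in ligation (4.14, 6.34 and 1.61 CPM in sham, ligation and cells), as Il6ra did, without passing against sham (edgeR adjusted p 0.116). Mesothelial markers (5 genes) summed to 31.0 to 42.9 CPM in sham, 194 to 238 in ligation and 162 to 170 with cells, and none was at 0. Fast skeletal muscle markers (6 genes) also stood apart in ligation, at 7.52 to 10.01 CPM against 0.890 to 2.54 in sham and 1.13 to 1.58 with cells; Myh4 was at 0 in sham and with cells, and Myh2 at 0 in sham.

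**Figure D2:**
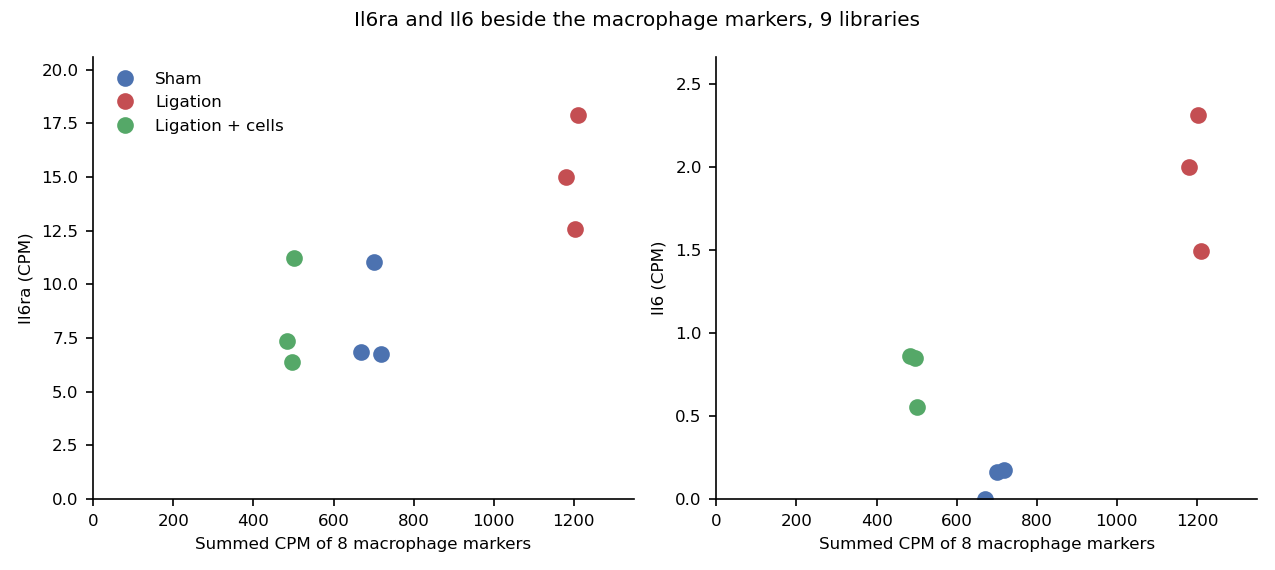
Il6ra (left) and Il6 (right) in CPM against the summed CPM of 8 macrophage markers, 1 point per library, coloured by group. Ligation libraries hold the highest values on both axes, and the cell libraries have the lowest macrophage sums (485 to 501 CPM) with Il6ra at 6.38 to 11.2 CPM, beside 6.76 to 11.0 in sham.

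Il6st encodes gp130, the signalling chain shared by the family (ENSMUSG00000021756, chr13:112464070-112510086, plus strand). Its level was 208, 227 and 226 CPM in sham, 281, 296 and 282 in ligation, and 299, 279 and 319 with cells. Ligation and cell libraries overlapped and all lay above sham. The increase was 0.38 after ligation (SE 0.0560, edgeR adjusted p 1.67e-05) and 0.44 in the cell group against sham (SE 0.0558, edgeR adjusted p 2.15e-06), both on the log2 scale. Cells differed from ligation by 0.06, with a 95% interval of -0.07 to 0.20 and an edgeR adjusted p of 0.556. Fibroblast markers (6 genes, all tested) also stood higher in both ligated groups: they summed to 1680 to 1728 CPM in sham, 2874 to 2938 in ligation and 2768 to 2834 with cells, with none at 0. By the edgeR call 4 of the 6 were higher and 1 was lower in ligation than in sham. Their part in the Il6st and Stat3 results was not tested.

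Osmr encodes the oncostatin M receptor chain that pairs with gp130 (ENSMUSG00000022146, chr15:6813577-6874969, minus strand). It was at 58.2, 52.4 and 62.2 CPM in sham, 66.1, 64.7 and 65.0 in ligation, and 61.8, 58.8 and 59.2 with cells. Ligation libraries lay above all others, but by little: the difference from sham was 0.18 on the log2 scale (SE 0.0721, edgeR adjusted p 0.0573) and that of cells from ligation -0.12 (SE 0.0706, edgeR adjusted p 0.332). Scaled by library totals alone, Osmr passed in ligation against sham (0.37, adjusted p 0.000307), as it did without sham replicate 3 (0.24, adjusted p 0.0251), in a range of 0.000307 to 0.285. Library totals also gave a call in cells against sham (0.22, adjusted p 0.0191, in a range of 0.0191 to 0.939), where TMM scaling gave 0.06 (edgeR adjusted p 0.558).

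The list of other receptors held Il11ra1, Lifr, Cntfr, Il27ra and Il31ra, of which 4 were tested; 2 of these fell after ligation, 1 fell with cells and none of the 4 rose by the edgeR call in any of the 3 comparisons. Of all tested genes 18.0% were called lower after ligation and 5.69% with cells, so counts this small are a description of these 4 receptors. The list's median was -0.24 on the log2 scale after ligation, beside 0.01 for all tested genes. Lifr, the LIF receptor, went down from 65.9 ± 2.61 CPM (SD, n = 3) in sham hearts, through 57.9 ± 4.73 after ligation, to 46.7 ± 0.477 with cells. The step from ligation to cells was -0.30 (SE 0.0744, edgeR adjusted p 0.0110) and the whole distance from sham to cells -0.50 (SE 0.0738, edgeR adjusted p 1.58e-05). The first step, -0.19 (SE 0.0731, edgeR adjusted p 0.0411), was lost in 7 of 9 fits that left out 1 library and kept in those without ligation replicate 1 or cell replicate 2; with library totals alone it was -0.01. DESeq2 (adjusted p 0.0938), no filter on low counts (0.0986) and summed header stems (0.0656) also ended this call. Leaving out ligation replicate 2 ended the call from ligation to cells (adjusted p 0.0534). Il11ra1, the interleukin-11 receptor, fell from 76.1 ± 6.42 to 62.3 ± 2.91 CPM after ligation (-0.28, SE 0.0722, edgeR adjusted p 0.00380) and was at 66.3 ± 2.03 with cells. With library totals alone that change was -0.09 and not called (adjusted p 0.321). Il11ra1 has near-identical copies in the mouse genome, so its counts are uncertain.

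Levels of different genes were compared per kilobase of exon. Among receptor chains in sham, Il6st was highest at 19.8 ± 0.927 CPM per kilobase (SD, n = 3), followed by Il11ra1 at 17.0, Lifr at 6.12, Osmr at 4.76, Cntfr at 2.67, Il27ra at 1.69 and Il6ra at 0.950. No neighbours among these 7 overlapped in sham. The ligand-specific receptor for interleukin-6 was thus the least abundant of the tested receptor chains, and gp130 the most abundant. After ligation Il6st was at 25.8 ± 0.746 CPM per kilobase and Il6ra at 1.75 ± 0.308, and Il6ra then overlapped Il27ra; Osmr (5.39) and Lifr (5.38) could not be told apart. With cells Il6st was at 26.9 and Il6ra at 0.963 CPM per kilobase, with Osmr (4.95) above Lifr (4.33). The order depends on the length used: with the longest transcript in place of all exons, Il11ra1 (29.2) came before Il6st (25.4) in sham, and Osmr (10.5) before Lifr (6.83). The 5 member ligands were lower, from 0.0471 CPM per kilobase for Il6 to 0.520 for Clcf1 in sham. In ligation Clcf1 (0.913) and Il6 (0.797) led and overlapped, and with cells Clcf1 led alone at 1.04 CPM per kilobase.

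**Figure D3:**
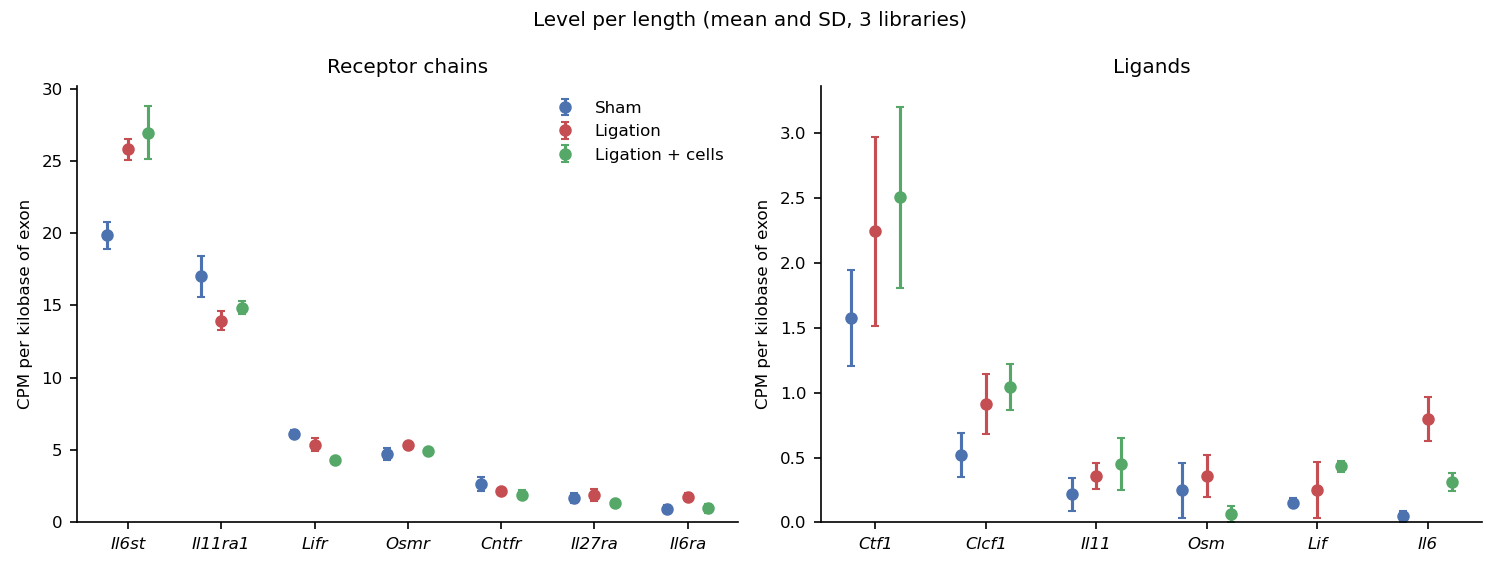
Level per kilobase of exon for 7 receptor chains (left) and 6 ligands (right), mean and SD of 3 libraries per group. Il6st is the highest receptor chain in each group (19.8, 25.8 and 26.9 CPM per kilobase in sham, ligation and cells), and Il6 rises from the lowest of these ligands in sham to 0.797 in ligation.

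Stat3 encodes the transcription factor that gp130 activates (ENSMUSG00000004040, chr11:100885098-100939540, minus strand). It was at 166, 171 and 162 CPM in sham, 197, 198 and 209 in ligation, and 200.0, 203 and 207 with cells. Both ligated groups lay above sham without overlap and overlapped each other. The increase was 0.27 after ligation (SE 0.0518, edgeR adjusted p 0.000258) and 0.29 in the cell group (SE 0.0515, edgeR adjusted p 0.000137), or 1.21-fold and 1.22-fold. Cells and ligation differed by 0.01, with a 95% interval of -0.11 to 0.14. Transcript level says nothing of STAT3 phosphorylation, which was not measured. Stat3 shares 72 exon bases with Stat5a on the other strand, and since the strand setting is not given the reads there cannot be told apart.

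Socs3 encodes the inhibitor that STAT3 induces and that shuts off gp130 (ENSMUSG00000053113, chr11:117966079-117970047, minus strand). Its level was 16.4, 12.5 and 12.5 CPM in sham, 21.7, 23.0 and 18.9 in ligation, and 13.5, 17.6 and 20.2 with cells. Ligation lay above sham in every library, and the cell libraries spread across both groups. The rise after ligation was 0.62 on the log2 scale (SE 0.156, edgeR adjusted p 0.00357), or 1.53-fold, and was called under every alternative (0.000169 to 0.0227). The cell group was between the others, 0.31 lower than ligation (edgeR adjusted p 0.226) and 0.31 above sham (edgeR adjusted p 0.126), and neither difference passed. Without cell replicate 1 the difference from sham was called (0.46, adjusted p 0.0264), as it was with library totals alone (0.47, adjusted p 0.0187), in a range of 0.0187 to 0.444. The region before the start is shown for a STAT motif, in capitals (TTCNNNGAA; RefSeq, GRCm38.p6, chr11:117969367-117969616, minus strand, written along the gene). The RefSeq start differs from that of GENCODE, whose gene span also takes in transcripts without a coding sequence; the window lies inside that span but before the GENCODE transcript that codes for the protein.

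Socs3 promoter: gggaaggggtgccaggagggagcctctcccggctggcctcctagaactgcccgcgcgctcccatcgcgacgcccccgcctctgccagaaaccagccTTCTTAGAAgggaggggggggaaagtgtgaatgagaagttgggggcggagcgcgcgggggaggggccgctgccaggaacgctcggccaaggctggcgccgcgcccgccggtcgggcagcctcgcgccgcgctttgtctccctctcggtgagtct

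The match, TTCTTAGAA, begins 154 bases before the start. Of the 32851 windows, 7.02% held a match to TTCNNNGAA, and the windows of the other members with a RefSeq entry (Il6, Il11, Lif, Il6ra, Il6st, Osmr and Stat3) did not. No match says only that the letters are not in the window.

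**Figure D4:**
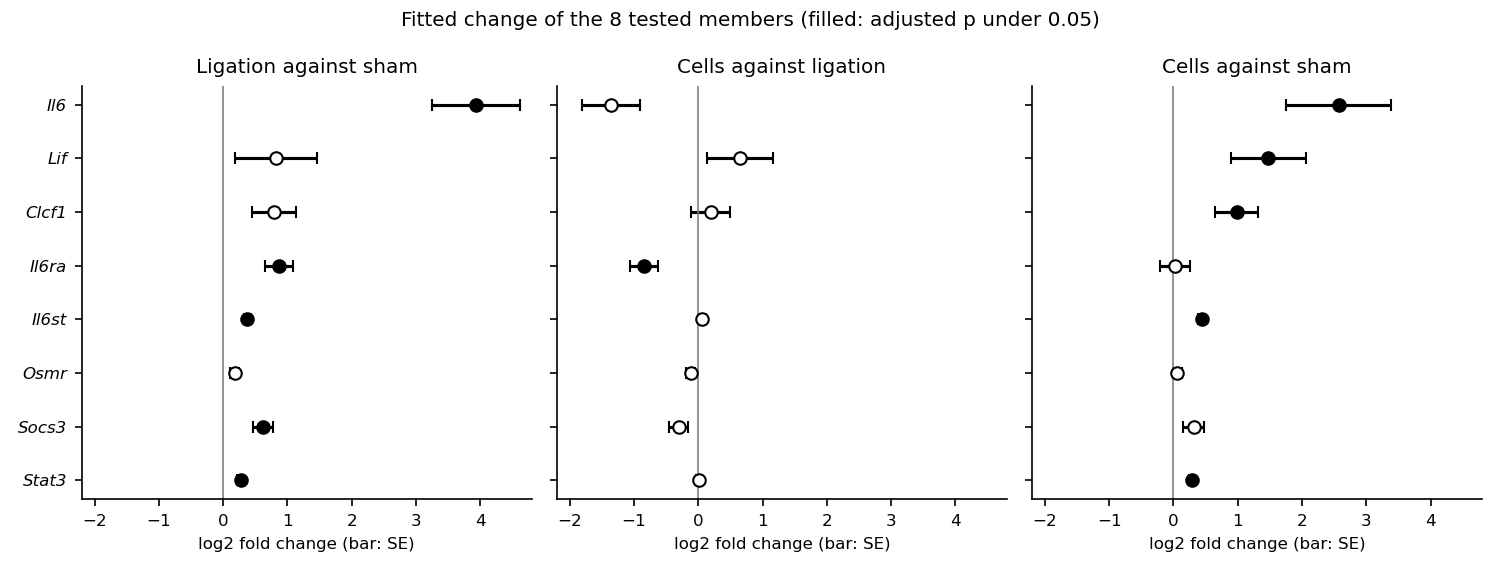
Fitted log2 fold change (horizontal axis, bar: SE) of the 8 tested members in the 3 comparisons; filled points passed an adjusted p of 0.05. In ligation against sham all 8 values are above 0 and 5 are filled; in cells against ligation Il6ra alone is filled, at -0.84.

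In ligation against sham the median over the 8 tested members was 0.70 on the log2 scale, beside 0.01 over all tested genes; in cells against ligation it was -0.05 beside 0.00195, and in cells against sham 0.38 beside -0.00735. Il6 and Lif entered these medians through the groups where they were high, so the medians describe the members that passed the filter and support nothing further.

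Kinases, other STATs and adaptors of the pathway (12 genes, all tested) had 3 higher and 3 lower after ligation, shares near those of all tested genes (20.1% higher and 18.0% lower). Ptpn11, which encodes the phosphatase SHP2 that links gp130 to the MAP kinase cascade, rose from 225 ± 7.21 to 378 ± 17.4 CPM (SD, n = 3; log2 fold change 0.75, SE 0.0499, edgeR adjusted p 1.90e-10) and was at 371 ± 10.2 with cells. Stat2, which carries interferon signals, fell while Stat3 rose. Stat2 went from 72.1 ± 0.941 CPM in sham hearts to 51.8 ± 4.38 after ligation and 43.2 ± 2.38 with cells (-0.48 and -0.27, edgeR adjusted p 3.33e-05 and 0.0324). The second step of Stat2 was not called by DESeq2 (adjusted p 0.0958), with the 6 libraries alone (0.0528), with shared header stems summed (0.0689), or without ligation replicate 2 (0.203), cell replicate 1 (0.139) or cell replicate 2 (0.0587), in a range of 0.0177 to 0.203. The list's median was 0.10 after ligation and -0.02 with cells. Other marker sums were also lower after ligation, as Lifr and Stat2 were. Heart muscle markers summed to 36722 to 38521 CPM in sham, 30741 to 31733 in ligation and 29942 to 30517 with cells. Of these 6 genes 4 were called lower and 1 higher after ligation, and 1 lower and 1 higher with cells against ligation, so the sum does not stand for each marker. Endothelial markers (6 genes) summed to 1934 to 2060 CPM in sham, 1350.04 to 1450 in ligation and 1453 to 1496 with cells. Smooth muscle and pericyte markers (6 genes) summed to 1540 to 1588 CPM in sham, 1130 to 1152 in ligation and 1134 to 1169 with cells. After ligation 5 endothelial markers were called lower and 1 higher. Of the 5 tested smooth muscle and pericyte markers 3 were called lower and 1 higher, so these sums do not stand for each marker either. The part of these cells in the Lifr and Stat2 results was not tested.

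Inhibitors of the pathway other than Socs3 (8 genes, all tested) had 1 gene higher, 1 lower and a median of -0.02 after ligation, shares below those of all tested genes (20.1% higher and 18.0% lower). Cish, a STAT5-induced relative of Socs3, fell by 0.62 on the log2 scale, from 29.5 ± 3.91 to 18.9 ± 2.43 CPM (edgeR adjusted p 0.000470), so the Socs3 increase was not shared by this relative. Ptpn1, a phosphatase that acts on Janus kinases, rose by 0.43 (edgeR adjusted p 0.000861). With cells Ptpn6, which encodes the blood-cell phosphatase SHP1, was the 1 gene of the list that changed, from 14.4 ± 2.14 to 5.48 ± 1.04 CPM (-1.38, SE 0.213, edgeR adjusted p 0.000154), while Cish stayed at 19.6 CPM. The fall of Ptpn6 moved with that of the macrophage markers given above, whose part in it was not tested.

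Genes known from other settings to respond to gp130 and STAT3 (20 genes, 18 tested) had 12 higher and 1 lower after ligation, with a median of 0.48, where 20.1% of all tested genes were higher, 18.0% were lower and the median was 0.01. Mesothelial, macrophage and fibroblast markers, whose sums are given above, were also higher after ligation, and their part in this list's change was not tested. The listed genes are also induced by other signals, so their change is not a readout of this pathway alone. The list was chosen with earlier results of these data known, so its counts and medians are a description. The 3 with the largest fitted change were Saa3, Hp and Timp1. Saa3 (serum amyloid A3) rose from 1.40 ± 0.567 to 14.7 ± 0.654 CPM (SD, n = 3; log2 fold change 3.38, SE 0.224, edgeR adjusted p 1.86e-10). Hp, which encodes haptoglobin, rose from 9.21 ± 2.58 to 65.0 ± 4.23 CPM (2.82, SE 0.126, edgeR adjusted p 3.84e-13), and the protease inhibitor gene Timp1 rose by 2.43 (edgeR adjusted p 2.31e-13).

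With cells the same list had 2 genes higher and 6 lower than in ligation, and a median of -0.18, where 4.19% of all tested genes were higher, 5.69% were lower and the median was 0.00195. All 8 macrophage markers also fell with cells, and their part in this list's change was not tested. Hp fell to 34.0 ± 1.65 CPM (-0.94, edgeR adjusted p 1.57e-06) and the acute-phase protease inhibitor gene Serpina3n fell from 188 ± 8.25 to 112 ± 7.51 CPM (-0.76, SE 0.0630, edgeR adjusted p 4.56e-08). Saa3 went the other way, to 23.3 ± 1.33 CPM (0.67, SE 0.133, edgeR adjusted p 0.00193), so the 3 did not move together. All 3 stayed above sham, by 1.88 for Hp, 0.78 for Serpina3n and 4.05 for Saa3 (log2), and edgeR gave adjusted p-values of at most 8.95e-09. Serpina3n and Saa3 have close copies elsewhere in the genome, which leaves their counts uncertain.

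Upstream genes (8 listed, 5 tested) had 3 higher and none of the 5 lower after ligation by the edgeR call, where 20.1% of all tested genes were higher and 18.0% lower. Tgfb2 and Tgfb3, transforming growth factors that induce Il11 in fibroblasts, rose by 1.80 and 0.996 (edgeR adjusted p 1.72e-11 and 1.21e-07), while Il11 itself showed no detectable difference. Adam10, one of the proteases that release the interleukin-6 receptor from cells, rose by 0.32 (edgeR adjusted p 0.000779). With cells Tgfb1 was the 1 gene to change, from 61.9 to 48.0 CPM (-0.37, SE 0.0860, edgeR adjusted p 0.00744); without ligation replicate 2 it was not called (adjusted p 0.0743, in a range of 0.000373 to 0.0743). The fibroblast and mesothelial marker sums were also higher after ligation, and all 8 macrophage markers fell with cells. The part of these cells in the changes of the upstream genes was not tested. Il1a, Il1b and Tnf, which induce Il6, were too low for the test.

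**Figure D5:**
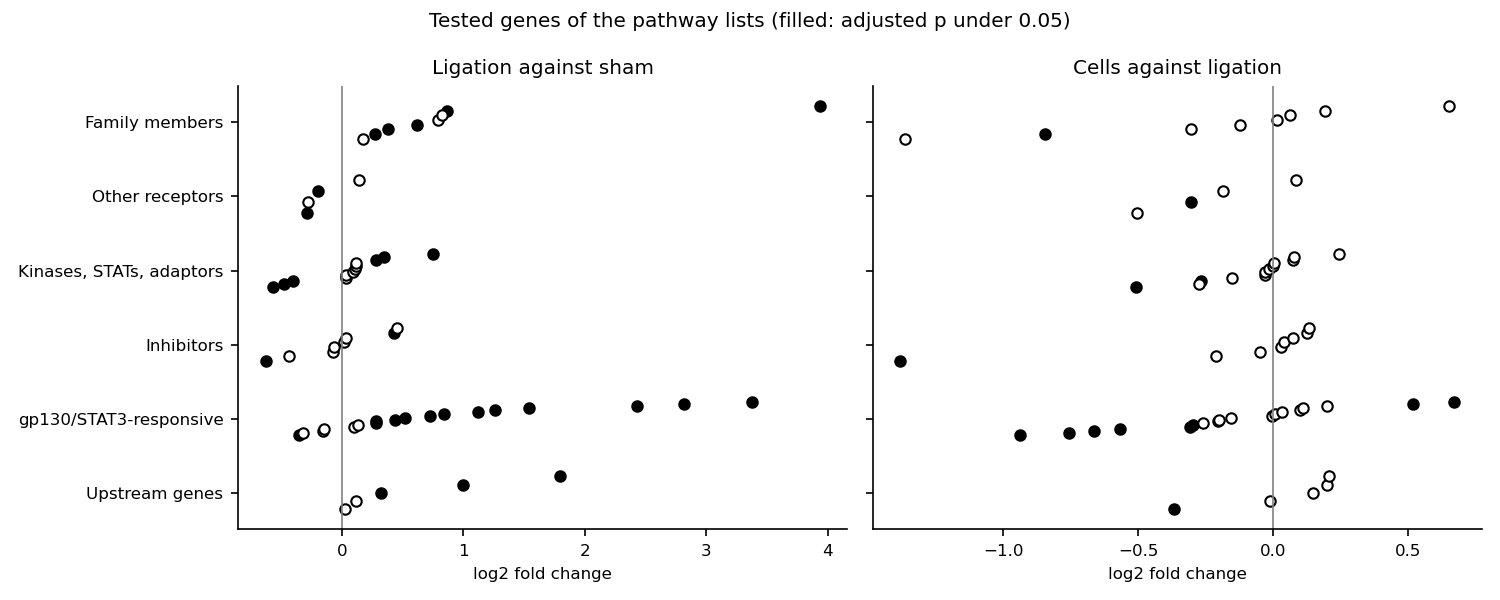
Fitted log2 fold change of each tested gene (1 point) in the members and 5 pathway lists, for ligation against sham (left) and cells against ligation (right); filled points passed an adjusted p of 0.05. After ligation the responsive genes reach 3.38 (Saa3) and the other receptors lie at or below 0 where filled; with cells most filled points are below 0.

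The genes whose levels ran most nearly parallel to a member over the 9 libraries were found by Pearson's r of log2 CPM among 11145 genes, as a description: libraries of 1 group share their treatment, and r has no p here. For Il6ra they were H2-Q2 (r = 0.939), Ms4a7 (0.933) and Lgals3bp (0.926). Ms4a7, a membrane protein gene of macrophages, was at 4.04, 11.7 and 5.17 CPM in sham, ligation and cells. H2-Q2 belongs to a family of close copies and is uncertain. For Il6st they were Bloc1s6 (0.988), Zfp385b (0.987) and Pygl (0.984), and for Stat3 Svil, Serpinf1 and Eif4b (0.993, 0.992 and 0.992), all of them higher in both ligated groups than in sham. Those of Socs3 were BC005624 (0.933), Tmem97 (0.917) and Scap (0.914), and those of Osmr included Pus7 (0.949) and Capza1 (0.911). By Spearman's rho at most 1 of the 3 genes stayed among the nearest 3 for any of these 5 members.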

How the data were processed

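RNA from 9 mouse heart libraries was analysed. Per the labels' protocols, RNA was isolated with TRIzol and libraries were prepared with an NEBNext Ultra kit. The authors deposited raw read counts per Ensembl gene; the build is mm10 per the submitters' processing notes, and the aligner, counter, strand setting and annotation release are not given in the sources used here. Reads outside genes (4.14% to 4.91%) and ambiguous reads (8.09% to 8.72%) stayed out of library sizes and tests. Symbols, lengths and coordinates came from GENCODE M21 (GRCm38), which named 53274 of 53465 IDs.

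Genes were kept with filterByExpr, scaled with TMM and fitted in edgeR 4.0.16 (R 4.3.3) with 1 mean per group over 9 libraries and 6 residual degrees of freedom; p-values were adjusted over 13825 genes. SE is the fold change divided by the square root of F. The 95% intervals of fold changes take SE with 6 degrees of freedom, fewer than the test uses. They can therefore include 0 where the unadjusted edgeR p is under 0.05. Small members got exact tests and exact (Clopper-Pearson) count intervals, which allow for counting error alone, because PCR copies cannot be told from molecules here. Replicate pairs differed beyond sampling noise, the chi-square averaging 1.98 to 3.96 over genes. Alternatives used DESeq2 1.42.0, limma 3.58.1, other scalings and filters, 2-group fits, a replicate block, removal of mitochondrial genes and single libraries left out; summing libraries by header stem was chosen after seeing the data. Named genes were the members, at most 3 called genes per list and comparison with a mean of at least 1 CPM, and 3 genes most like each of 5 members with a mean of at least 5 CPM. Members and lists were chosen with earlier results of these data known. Whether any reads came from the implanted cells was not analysed here. Some genes that the naming rule picked are not reported here.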

Additional observations from a re-analysis of the deposited data

Results flagged for a closer look

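Reads outside annotated genes were not used in the comparisons. They made up more of the reads in ligation, at 4.75% ± 0.155 (SD, n = 3), than in the sham controls, at 4.21% ± 0.0350, with 4.22% ± 0.113 in the cell group; the exact two-sided permutation p for ligation against sham was 0.1, the smallest that 3 against 3 libraries allow.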

How the results depend on the processing

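The 5 members called after ligation were the same 5 in the fits with other size factors, no filter, DESeq2, limma-voom, 6 libraries, the block, no mitochondrial genes and summed header stems; library totals added Clcf1 and Osmr, and a mean of at least 1 CPM removed Il6 from testing. Each of the 9 fits without 1 library also called those 5. In cells against ligation, fits without 1 library called 0 to 1 members (edgeR), and those calling 0 had 2 or 3 at an unadjusted p under 0.05; DESeq2 and limma-voom called 1. In cells against sham they called 3 to 5, and both a mean of at least 1 CPM and DESeq2 gave 3. With the replicate block 5, 1 and 4 members and 5134, 1230 and 5511 genes were called in the 3 comparisons. Lif in cells against sham was the 1 member that lost its call with the block (edgeR adjusted p 0.0591), as did Lifr in ligation against sham (0.0584). Deviations of same-numbered libraries correlated from -0.118 to 0.0813. These values gave no sign of pairing by number, but 3 libraries per group cannot exclude it. Some small differences changed sign without passing: Stat3 in cells against ligation was -0.0152 with library totals and -0.00312 to 0.0427 with 1 library left out. With 1 library left out, Clcf1 in cells against ligation ran from -0.0157 to 0.371, Il6ra in cells against sham from -0.259 to 0.292 and Osmr there from -0.00942 to 0.117. Differences in mean CPM ran from -0.0222 to 0.455 for Osm in ligation against sham and from -0.0265 to 0.379 for Il11 in cells against ligation. The cause was not tested. Depth limits Il6, Il11, Lif and Osm, which held at most 16 counts in any library.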
